A study of Xenopus laevis with 20 samples.

Results

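The 185 probe sets described here measured transcripts of *Xenopus laevis*, the African clawed frog, whose level was lower in the late gastrula (stage 11.5) than in the early gastrula (stage 10). They were chosen on the values themselves. Of the 15491 probe sets of the array that are not manufacturer's controls, 2850 (18.4%) read lower on every one of the 10 stage 11.5 arrays than on every one of the 10 stage 10 arrays, and 2216 (14.3%) read higher on every one. The 200 with the largest mean log2 difference were taken from the 2850. From these 200, 11 were left out because their symbol starts with fox, sox, hox, gsc, nodal, mix, bix, sia, wnt, fgf, ventx, cdk, ccn, mcm, krt or aplnr, and 4 because **Nog** exceeded **Ven** by 0.585 log2 units or more in both stage 11.5 clutches. The stage difference is therefore a description of the members and carries no test, and the same holds for **Nog** against **Ven** at stage 11.5, which the rule also used.

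Of the members, 129 have 1 gene symbol, 3 are annotated to several genes and 53 have no gene name. The 129 stand for 123 symbols, or 118 genes when the .L and .S copies are counted once. *X. laevis* is allotetraploid, and .L and .S mark the homeologous copies of a gene on its long and short chromosome sets.

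A frog egg is laid with a large store of maternal mRNA. This store runs the first rapid cleavages, in which the cell cycle has almost no gap phases and the zygotic genome is silent. At the mid-blastula transition the zygotic genome is switched on, the cycle lengthens and gains checkpoints, and over the following hours much of the maternal mRNA is degraded, through sequence elements that are bound by deadenylation and decay factors. Gastrulation begins after this transition, so transcripts lost during it can be maternal leftovers or products of a short early burst of zygotic transcription. Their kinds are not told apart by these arrays, which measured no RNA from eggs or blastulae.

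The tissues were the ventral or the dorsal side of bisected gastrulae. Ventral pieces came from embryos injected ventrally at the 4-cell stage with *eGFP* mRNA and *noggin* plasmid (**Nog**), with *eGFP* mRNA and both *noggin* and *dkk-1* plasmids (**Nog+Dkk**), with *eGFP* mRNA and *dkk-1* plasmid (**Dkk**), or with *eGFP* mRNA only (**Ven**), and dorsal pieces came from embryos that had received *eGFP* mRNA only (**Dor**). Noggin is a secreted inhibitor of BMP ligands and Dkk-1 a secreted inhibitor of canonical Wnt signalling, and both are made by the organizer, the dorsal signalling centre of the gastrula. Each of the 20 samples held RNA of 10 pooled pieces and was hybridized to 1 Affymetrix array, with 2 arrays for each of the 5 conditions at each stage. *noggin* and *dkk-1* were given as DNA, which is transcribed once the zygotic genome is active. **Ven** and **Dor** received no plasmid, so in any comparison with **Ven** plasmid DNA cannot be told apart from Noggin or Dkk-1. Injection is mosaic, so each injected sample mixes expressing and other cells.

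The stage 11.5 samples came from clutches 3 and 4, and those of stage 10 from clutches 1 and 2. Stage and clutch therefore cannot be told apart, and every stage difference below is also a difference between pairs of clutches. The guide to the cut went with stage too. Stage 10 embryos were bisected by the blastopore lip, a visible landmark, and stage 11.5 embryos by eGFP fluorescence. On 2 of the stage 10 arrays, 1 **Nog+Dkk** and 1 **Dkk**, the sample title gives clutch 2 and another label gives clutch 1, and the title was followed. Such a piece of gastrula holds many cell types, and fewer cells of a type cannot be told apart from less RNA per cell.

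The dissection was visible in the markers. Of 16 probe sets for genes of dorsal tissue, 15 were higher in **Dor** than in **Ven** in both clutches at each stage, with a median difference of 2.13 at stage 11.5 and 2.11 at stage 10. Of 18 for ventral tissue, 15 were lower in **Dor** in both clutches at stage 11.5 and 14 at stage 10. The probe set of *dkk1.S* read 7.32 to 8.51 in the 8 samples injected with *dkk-1* and 5.16 to 6.08 in the 4 **Ven** samples. That of *nog.L* read 4.84 to 5.75 in the 8 samples injected with *noggin* and 4.35 to 5.15 in **Ven**, so these groups overlapped, although both *noggin* conditions were above **Ven** in each clutch. Array medians were 6.65 to 6.69 at stage 11.5 and 6.81 to 6.90 at stage 10, and setting them equal moved every stage difference by 0.17 upward. The 18 probe sets for spiked-in hybridization controls differed between stage 11.5 and stage 10 by a median of -0.61 (from -1.26 to 0.52), with clutch medians of 8.0 in clutch 3, 8.96 in clutch 4, 8.81 in clutch 1 and 8.61 in clutch 2. The log2 ratio of the 3′ to the 5′ probe sets, which is in use as a guide to RNA length, was 0.93 at stage 11.5 and 0.55 at stage 10 for Gapdh. For beta-actin it was -2.48 at stage 11.5 and -3.38 at stage 10. There the 3′ probe set read far below the 5′ one, so this ratio is no plain reading of RNA length. The part of these shifts in the stage differences was not tested.

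The members differed between stage 11.5 and stage 10 by a median of -2.13 log2 units, with an interquartile range from -2.45 to -1.94, while the median of all probe sets was -0.04. The smallest difference was -1.81 and the largest -3.77, which is a 13.7-fold lower level. Of the 20 probe sets on the array that were more than 8-fold lower at stage 11.5, 17 are members, and of the 135 more than 4-fold lower, 123 are members. In the other direction 155 probe sets were more than 4-fold and 34 more than 8-fold higher. The lowest stage 10 array exceeded the highest stage 11.5 array by 0.34 to 3.24 (median 1.49) over the members.

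**Figure D1:**
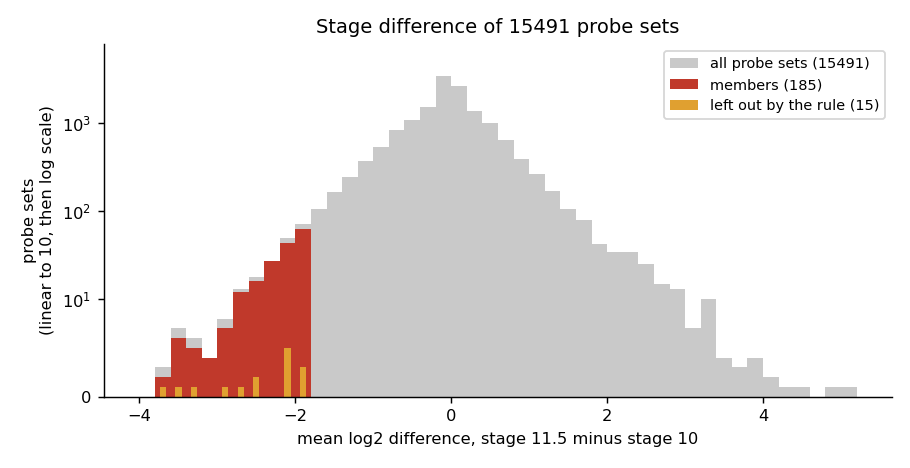
Mean log2 difference between stage 11.5 and stage 10 (horizontal axis, bins of 0.2) and the number of probe sets in each bin (vertical axis, linear to 10 and logarithmic above). Grey bars are all 15491 probe sets, red bars the 185 members and narrow orange bars the 15 left out by the rule. The members fill the left tail, from -3.77 to -1.81, and the right tail reaches 5.08.

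Each pair of clutches across the stages gave a similar median, but the rule had fixed its direction and chose members for a large difference. The median difference of the members was -2.14 for clutch 3 minus clutch 1, -2.26 for clutch 3 minus clutch 2, -2.03 for clutch 4 minus clutch 1 and -2.21 for clutch 4 minus clutch 2. The median over all probe sets lay between -0.06 and -0.02 in the same pairs. The median level of the members was 6.30 in clutch 3 and 6.30 in clutch 4, against 8.65 in clutch 1 and 8.75 in clutch 2. At stage 11.5, 75 members averaged at or below 6.08, the highest level among 44 control probe sets for *Bacillus* genes and synthetic tags. Only 3 did so at stage 10. Such levels lie within the range of probe sets without a target, although only 2 members were at or under the controls' median of 3.86 at stage 11.5. The size and rank of these 75 differences are therefore uncertain and may understate the change. Among them are *btg4.L*, *map1lc3c.L*, *aldh2.L*, *fbxo43.L*, *zfp36l2.2.L*, *tmem171.L*, *tbp.L*, *chek1.S*, *hdac2.S* and *hprt1.L*. Those 44 control probe sets had a median level of 3.86 and differed between stages by -0.31 to 0.05.

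At the head of the list stood *LOC398162*, a transcript whose symbol carries no described function. It read 6.33 to 6.66 (median 6.54) on the stage 11.5 arrays, against 9.90 to 10.58 (median 10.32) on the stage 10 arrays, a difference of -3.77. Both copies of *btg4* followed among the 5 named members with the largest differences. In mouse, Btg4 is an adaptor that brings the CCR4-NOT deadenylase to maternal mRNA, whose decay it promotes. The level of *btg4.L* was 3.76 to 4.47 (median 4.22) at stage 11.5, against 7.13 to 8.03 (median 7.77) at stage 10, a difference of -3.50. The *btg4.S* probe set gave 6.46 to 7.40 (median 7.26) at stage 11.5, against 10.25 to 10.81 (median 10.53) at stage 10, a difference of -3.44. The gap between the stages was wider than the whole range within either stage for both copies.

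Further members with 1 gene symbol act on stored mRNA. Transcripts of *zfp36l2* encode a zinc finger protein that binds AU-rich elements and promotes mRNA decay. *zfp36l2.2.L* read 5.27 to 5.90 (median 5.71) at stage 11.5, against 8.53 to 9.17 (median 9.01) at stage 10, and *zfp36l2.1.S* read 6.15 to 6.67 (median 6.52) at stage 11.5, against 8.93 to 9.70 (median 9.41) at stage 10. *patl2.L*, which encodes an oocyte RNA-binding protein of mRNA storage particles, was at 6.75 to 7.75 (median 7.39) at stage 11.5, against 9.64 to 9.96 (median 9.81) at stage 10. *zar2.S*, for an RNA-binding protein of the oocyte that represses translation, was at 6.53 to 7.26 (median 6.88) at stage 11.5, against 8.94 to 9.40 (median 9.15) at stage 10. *dapl1* encodes a protein that in eggs of zebrafish and *Xenopus* is bound to dormant ribosomes. Its .S copy differed by -2.65 and its .L copy by -2.27, and within stage 11.5 both spread more widely than the *btg4* copies, from 6.84 to 8.27 for *dapl1.S* and from 5.47 to 6.68 for *dapl1.L*.

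As a group, the genes of mRNA storage and translational control had a median near that of the array, but larger shares in both directions. Their list held 60 probe sets of 34 genes, of which 4 are members, and 18 (30%) were lower on every stage 11.5 array against 18.4% of all probe sets, while 14 (23.3%) were higher on every one against 14.3%. The list's median difference was 0.05, against -0.04 over all probe sets. Probe sets annotated to several genes were put on no list, among them a member for both copies of *cpeb1* (-3.45). 2 further genes of egg mRNA control and arrest were picked out after their values were seen. *zar1.S*, a relative of *zar2*, differed by -0.84, and *mos.L*, whose kinase holds the egg in its meiotic arrest, differed by -1.20 and -1.17 in its pair of probe sets. All 3 probe sets were lower on every stage 11.5 array.

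**Figure D2:**
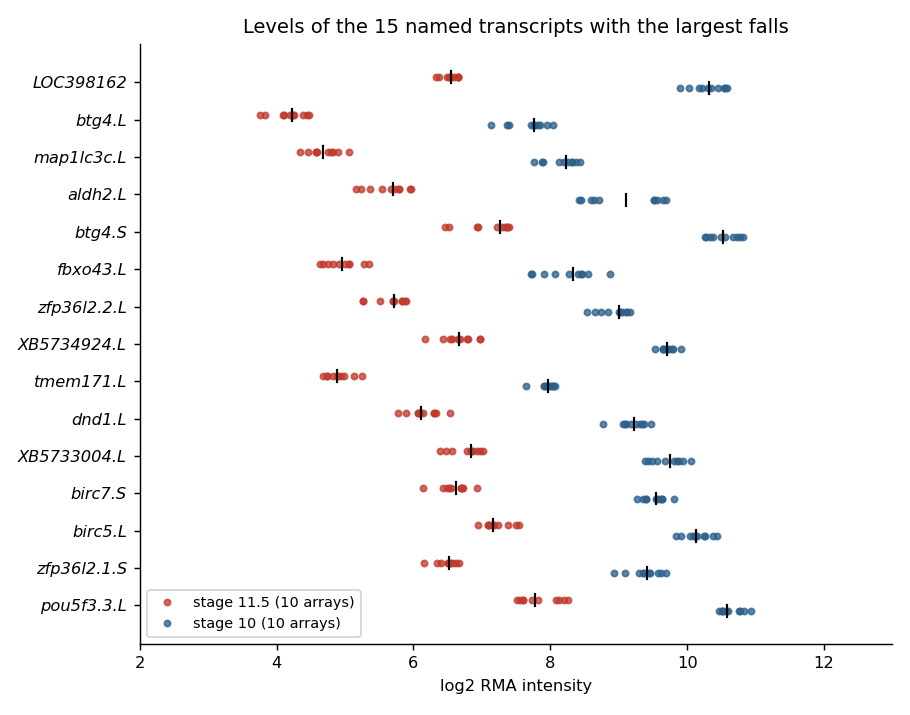
Level (log2 RMA intensity, horizontal axis) of the 15 members with a symbol and the largest stage differences, largest at the top. Each point is 1 array, red for stage 11.5 (10 arrays, upper line of each pair) and blue for stage 10 (10 arrays, lower line), and black ticks are medians. The stages are apart for each transcript by the rule that chose it, and *aldh2.L* has 2 clusters of points at stage 10.

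Several members run meiotic arrest and the early cell cycle. *fbxo43.L* encodes Emi2, an inhibitor of the anaphase-promoting complex that keeps the frog egg arrested until fertilization. It was at 4.64 to 5.35 (median 4.96) at stage 11.5, against 7.72 to 8.88 (median 8.33) at stage 10. *birc5.L*, for survivin, a subunit of the chromosomal passenger complex of mitosis, was at 6.95 to 7.54 (median 7.17) at stage 11.5, against 9.84 to 10.44 (median 10.13) at stage 10. *chek1.S* encodes the kinase of the replication checkpoint, and its range was 4.65 to 5.60 (median 5.26) at stage 11.5, against 7.54 to 7.91 (median 7.71) at stage 10. *wee2.L*, for the Wee1-type kinase of the egg that inhibits Cdk1, was at 7.44 to 8.14 (median 7.88) at stage 11.5, against 10.08 to 10.24 (median 10.13) at stage 10. The spread of *wee2.L* over the 10 stage 10 arrays was among the narrowest of the transcripts named here.

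The somatic relative of that kinase gene went the other way. *wee1.L*, singled out after its values were seen, was higher at stage 11.5, with 9.04 to 9.32 (median 9.18) on those arrays and 8.03 to 8.65 (median 8.26) on the stage 10 arrays, a difference of 0.87. *wee2.S*, the other copy of the egg gene, differed by -0.99. *spdyc.L* encodes a Speedy (RINGO) activator of cyclin-dependent kinases known from oocyte maturation. It differed by -2.20 and its other copy *spdyc.S* by -1.63. *ssx2ip*, whose protein builds the centrosome of the early embryo, had both copies among the members, with -2.61 for *ssx2ip.S* and -2.46 for *ssx2ip.L*. Further members of mitosis were *spc24.L* of the kinetochore (-2.12), *tubg1.L* for gamma-tubulin (-1.94) and *anapc10.L* of the anaphase-promoting complex (-1.94).

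Members of DNA replication were *cdc45.L*, a part of the replicative helicase (-1.89), *rrm2.2.L*, the small subunit of ribonucleotide reductase (-1.87), and *pif1.L*, a DNA helicase (-2.28). *e2f1.L*, a transcription factor of the entry into S phase, was at 7.04 to 7.84 (median 7.43) at stage 11.5, against 8.94 to 9.48 (median 9.36) at stage 10. Over the whole list of cell cycle and checkpoint genes outside the cdk, ccn and mcm families, 8 of 115 probe sets are members, *btg4* included. On every stage 11.5 array 52 (45.2%) were lower, against 18.4% of all probe sets, and 13 (11.3%) were higher, against 14.3%. The list's median difference was -0.41.

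The list of histone and chromatin genes gave *nasp.L* and *hdac2.S*. Outside the lists, a member annotated to both *h2ac1.S* and *h2ac17.L*, genes of histone H2A, differed by -2.05. The histone chaperone gene *nasp.L* was at 6.38 to 6.96 (median 6.72) at stage 11.5, against 8.21 to 9.0 (median 8.77) at stage 10, and *hdac2.S*, for a histone deacetylase, was at 4.57 to 5.06 (median 4.88) at stage 11.5, against 6.60 to 7.13 (median 6.83) at stage 10. *baz1a.S*, a chromatin remodeller subunit, and *dnajc9.L*, a histone co-chaperone, differed by -1.98 and -2.07. In the chromatin list 2 of 91 probe sets are members, 17 (18.7%) were lower on every stage 11.5 array and 31 (34.1%) higher.

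The germ line genes had the lowest median of the 19 lists, -0.94. The germ plasm is a vegetal region of the egg whose RNAs are inherited by the few cells that become germ cells, and some of its RNAs are cleared from the somatic cells of the embryo. Of the 23 probe sets, 4 are members, 12 (52.2%) were lower on every stage 11.5 array, against 18.4% of all probe sets, and 3 (13%) were higher on every one, against 14.3%. *dnd1.L*, for the germ plasm RNA-binding protein Dead end, was at 5.78 to 6.54 (median 6.12) at stage 11.5, against 8.77 to 9.47 (median 9.22) at stage 10. *plin2.L*, known in *Xenopus* as the vegetally localized lipid-droplet RNA fatvg, was at 7.22 to 7.94 (median 7.58) at stage 11.5, against 9.69 to 10.01 (median 9.82) at stage 10. *rbpms2.L* encodes Hermes, an RNA-binding protein of the germ plasm. It read 5.79 to 6.42 (median 6.20) at stage 11.5, against 7.97 to 8.49 (median 8.23) at stage 10. For these 3 genes the highest stage 11.5 array was more than 1.5 log2 units under the lowest stage 10 array. Outside the list, *gtsf2.L*, a gene of the gametocyte-specific factor family, read 8.80 to 9.70 (median 9.33) at stage 11.5, against 11.04 to 11.31 (median 11.07) at stage 10.

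The POU factor *pou5f3.3.L*, the maternal Oct60, is on the same list. It was at 7.51 to 8.26 (median 7.78) at stage 11.5, against 10.46 to 10.94 (median 10.58) at stage 10, a difference of -2.80. Its paralogues, singled out after their values were seen, differed. *pou5f3.1.L* (Oct91) was higher at stage 11.5, at 11.47 to 11.82 (median 11.62), with 10.15 to 10.71 (median 10.57) at stage 10, a difference of 1.15. *pou5f3.2.L* (Oct25) had overlapping stages, with 11.53 to 12.01 (median 11.85) at stage 11.5, against 11.85 to 12.19 (median 12.01) at stage 10. The maternal T-box gene *vegt* also had overlapping stages, with differences of -0.27 for *vegt.L* and -0.14 for *vegt.S*. A lower total level at stage 11.5 was thus not shared by all genes known for maternal transcripts. The maternal part of these levels was not measured.

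Among genes of general transcription, both copies of *tbp*, for the TATA-binding protein, were members. *tbp.L* read 5.34 to 6.11 (median 5.94) at stage 11.5, against 8.15 to 8.60 (median 8.38) at stage 10. *tbp.S* read 6.58 to 7.30 (median 6.86) at stage 11.5, against 9.01 to 9.52 (median 9.16) at stage 10. *tbp* and *hprt1.L*, for the purine salvage enzyme, stand in the list of 18 probe sets of housekeeping genes that are in use as reference genes, and these 3 were the only ones of it that were lower on every stage 11.5 array. The list had 7 (38.9%) higher on every one and a median of 0.29. *hprt1.L* was at 5.05 to 5.51 (median 5.39) at stage 11.5, against 6.98 to 8.08 (median 7.54) at stage 10.

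The list of transcription factors outside the excluded families gave 4 members among its 133 probe sets: *pou5f3.3.L*, *irf2.S*, *e2f1.L* and *eomes.L*. It is not complete, and *atf5.2.S* (-2.04 and -1.93 in its member probe sets) is not among those counted. The interferon regulatory factor gene *irf2.S* was at 5.92 to 6.40 (median 6.13) at stage 11.5, against 7.93 to 8.36 (median 8.11) at stage 10. *eomes.L* encodes Eomesodermin, a T-box factor that is switched on zygotically in the early mesendoderm. It was the only member among 96 probe sets of early zygotic mesendoderm regulators, of which 11 (11.5%) were lower and 23 (24.0%) higher on every stage 11.5 array. The rule removed other genes of this kind by symbol: *bix1.2.S* (-3.79, the largest difference on the array in this direction), *bix1.1.L* (-2.65), *bix1.3.S* (-2.50), *mix1.L* (-2.15) and *mix1.S* (-2.01) were among the 200. None of these probe sets is on the list of mesendoderm regulators, so its shares do not cover them. The range of *eomes.L* was 7.68 to 9.42 (median 8.26) at stage 11.5, against 10.01 to 10.57 (median 10.35) at stage 10, the widest stage 11.5 range among the members named so far.

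Egg surface and yolk genes were represented by *vldlr.S*, for the receptor that takes up vitellogenin in the oocyte (-2.76), and *zpd.L*, for a glycoprotein of the egg coat (-2.38). Other members encode enzymes of metabolism. *aldh2.L*, mitochondrial aldehyde dehydrogenase, was at 5.16 to 5.97 (median 5.71) at stage 11.5, against 8.43 to 9.70 (median 9.11) at stage 10. Ornithine aminotransferase had *oat.S* (-2.71) and *oat.1.L* (-2.01), and *sod2.S*, for the mitochondrial superoxide dismutase, differed by -2.05. *pgk1*, for the glycolytic phosphoglycerate kinase, was the only member of 77 probe sets of glycolysis, the tricarboxylic acid cycle and respiration, and read 7.33 to 8.04 (median 7.67) at stage 11.5, against 9.28 to 9.84 (median 9.52) at stage 10. That list had 24 (31.2%) lower and 3 (3.90%) higher on every stage 11.5 array. It did not hold *cox5b.2.L*, whose symbol is that of a cytochrome c oxidase subunit of respiration. This member differed by -2.52.

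Survival and stress genes included *birc7.S*, of the inhibitor of apoptosis family, at 6.14 to 6.94 (median 6.62) at stage 11.5, against 9.27 to 9.80 (median 9.55) at stage 10. *map1lc3c.L*, of the LC3 family of autophagy, was at 4.34 to 5.06 (median 4.67) at stage 11.5, against 7.76 to 8.44 (median 8.23) at stage 10. The serine/threonine kinase gene *pim3* had both copies among the members, with -2.77 for *pim3.S* and -2.48 for *pim3.L*. *keap1.L*, the sensor that holds the Nrf2 stress response in check, differed by -2.43. *stmn1.S*, for the microtubule regulator stathmin, was the one member of 92 probe sets of trafficking, cytoskeleton and adhesion, at 8.1 to 8.92 (median 8.42) at stage 11.5, against 10.35 to 10.98 (median 10.63) at stage 10. Of the remaining 15 named members with the largest differences, *tmem171.L* (-3.04), *XB5734924.L* (-3.05) and *XB5733004.L* (-2.94) are given without a role.

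Among signalling members were receptors and intracellular regulators. The rule left out the symbols of the nodal, wnt and fgf ligand families, and *nodal2.L* (-1.89) was left out in this way. *cxcr4.L*, the chemokine receptor, differed by -1.90 and *cxcr4.S* by -0.96. *rgs4.S*, which shortens G protein signals, differed by -2.53 in its member probe set and by -0.76 in another. The G protein gamma subunit genes *gng4.S* and *gng10.L* differed by -1.94 and -1.86. No member was found among 72 probe sets of TGF-beta, Nodal and BMP signalling, 78 of the Wnt pathway, 102 of splicing and 97 of cytosolic ribosomal proteins, nor among 53 of the neural plate, 23 of epidermis, 21 of endoderm, 16 of dorsal and 18 of ventral tissue. The splicing list had none lower on every stage 11.5 array and 64 (62.7%) higher, with a median of 0.57. Epidermal genes had a median of 1.49, with 17 of 23 (73.9%) higher on every one. Lists and members share the stage contrast that chose the members, so these counts describe the set and test nothing.

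**Figure D3:**
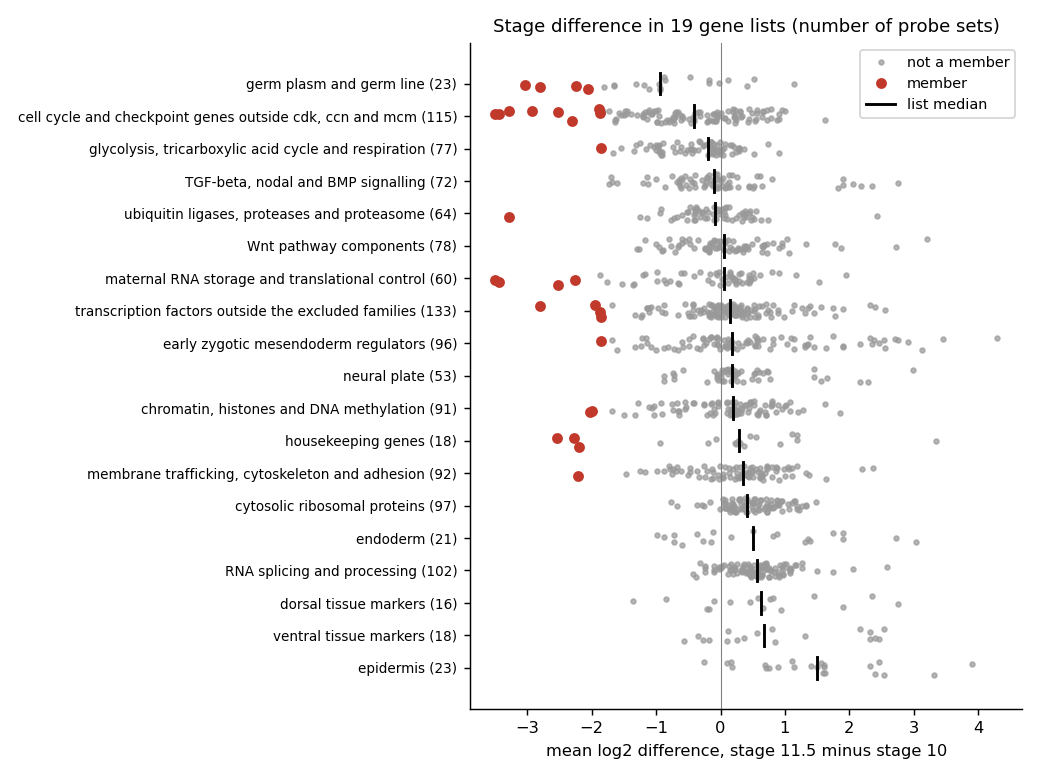
Mean log2 difference between stage 11.5 and stage 10 (horizontal axis) for the probe sets of 19 gene lists, ordered by median with the lowest at the top and with the number of probe sets in brackets. Red points are members, grey points other probe sets and black bars list medians, and points are jittered vertically. Germ line genes have the lowest median (-0.94) and epidermal genes the highest (1.49).

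Probe sets that were no members but belong to the members' genes were read as further measurements of the same gene or of its homeolog. There were 49 for 36 genes, and 34 (69.4%) were lower on every stage 11.5 array, against 18.4% of all probe sets. They share the arrays and clutches with the members, and homeologous probes can share signal. Some, such as that of *nasp.L*, carry the name of a member but for its ending and are not independent of it. Their median difference was -0.96, from -1.72 to 0.56. Probe sets of these genes with a difference large enough for the rule became members, so smaller differences than the members' were set by the choice. The 25 that measure only the other homeolog had a median of -1.02, and 19 (76.0%) were lower on every stage 11.5 array. The 24 with the same symbol as a member had a median of -0.76 and 15 (62.5%).

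Several of these probe sets went with their member and some did not. *chek1.S* had a further probe set at -1.63, *nasp.L* at -1.69 and *spsb1.S* at -1.67, and *birc5.S* stood at -1.62 and *rcbtb1.L* at -1.72. Those of *zar2.S* (-0.65) and *keap1.L* (-0.57) were lower by much less than their members. That of *keap1.L* averaged only 3.44 at stage 11.5 and 4.00 at stage 10, near the control probe sets' median of 3.86. For *adh5.L* the other probe set differed by -0.01, for *txn2.L* by 0.04 and for *cat.2.L* by 0.56, although the members of these genes differed by -1.90, -2.11 and -2.18. For *txn2.L* and *cat.2.L* the stage difference thus depended on the probe set. The other probe set of *adh5.L* averaged 3.91 at both stages, also near the controls' median, so it could hardly show a fall. Genes with 2 member probe sets numbered 11, of which 5 had both homeologs: *btg4*, *dapl1*, *pim3*, *ssx2ip* and *tbp*.

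The lower level at stage 11.5 was seen in each of the 5 conditions. Every one of the 185 members was lower by more than 1 log2 unit in each condition taken alone. The median difference of the members was -2.29 in **Nog**, -2.08 in **Nog+Dkk**, -2.07 in **Dkk**, -2.19 in **Dor** and -2.17 in **Ven**, while the median of all probe sets lay between -0.11 and 0.01. The 5 differences of a member spread over a median of 0.37 log2 units, and 3 members spread over more than 1. The rule asks every array of a stage to clear every array of the other, so it fixed the direction in each condition. It also tends to leave out transcripts with large differences between conditions.

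**Figure D4:**
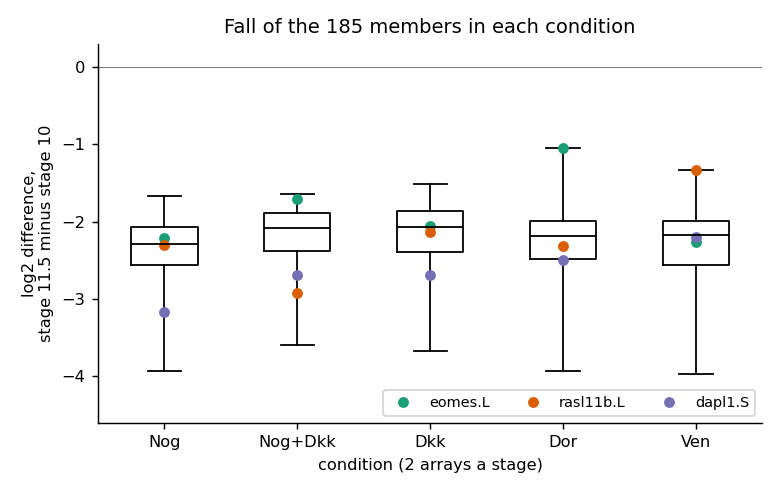
Log2 difference between stage 11.5 and stage 10 (vertical axis) of the 185 members in each condition (horizontal axis, 2 arrays at each stage). Boxes give quartiles and medians and whiskers the lowest and highest member, and coloured points are *eomes.L*, *rasl11b.L* and *dapl1.S*. *eomes.L* has the smallest difference in **Dor** (-1.05) and *rasl11b.L* the smallest in **Ven** (-1.33).

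Whether the members differed between conditions within a stage was tested with limma over all 15491 probe sets, with the clutch as a block and Benjamini-Hochberg adjustment, and a member was called at an adjusted p under 0.1. All 4 comparisons at a stage share the **Ven** arrays. At stage 10 no member was called in **Nog** against **Ven**, where 0.116% of all probe sets were called higher and 0.0129% lower. An unadjusted p under 0.05 was found for 12 of the 185 members and for 1489 of all 15491 probe sets. None was called in **Dkk** against **Ven** either, where 0.0452% of all were called higher and none lower. There 15 members and 507 of all probe sets had an unadjusted p under 0.05. In **Nog+Dkk** against **Ven** 2 members were called higher and 2 lower, beside 0.252% and 0.0194% of all probe sets. In **Dor** against **Ven** 2 probe sets of 1 gene were called higher and 1 member lower, beside 0.504% and 0.181% of all. Without clutch 1 or without clutch 2, no member was called at stage 10 in any of these 4 comparisons.

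*lpar6.L*, for a G protein-coupled receptor of lysophosphatidic acid, was the gene called in **Dor** with both of its member probe sets. In the first of them **Dor** read 9.30 and 9.59 in clutches 1 and 2 and **Ven** 8.50 and 8.72, and the groups did not overlap. The difference was 0.83 (SE 0.15, adjusted p = 0.00745, limma). The second gave 8.53 and 9.14 in **Dor** and 7.65 and 8.11 in **Ven**, a difference of 0.96 (SE 0.19, adjusted p = 0.0208, limma). **Nog+Dkk** was higher than **Ven** by 0.70 in the first probe set (9.14 and 9.50 in **Nog+Dkk**, adjusted p = 0.0727, limma), a call lost without the arrays of conflicting clutch labels (adjusted p = 1).

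*rasl11b.L* encodes a small GTPase of the Ras family that in zebrafish modulates the function of one-eyed pinhead. At stage 10 it read 10.30 and 9.15 in **Nog+Dkk** and 9.10 and 8.46 in **Ven**, a difference of 0.94 (SE 0.18, adjusted p = 0.0272, limma). It also read 9.98 and 9.28 in **Nog** and 9.72 and 9.3 in **Dkk**, with differences from **Ven** of 0.85 (adjusted p = 0.112, limma) and 0.73 (adjusted p = 0.596, limma) that were not called, and 9.01 and 8.34 in **Dor**. The 6 **Nog**, **Nog+Dkk** and **Dkk** arrays were above both **Ven** arrays, and clutch 1 was above clutch 2 in each condition. These are the conditions that received plasmid DNA, which cannot be told apart here from Noggin or Dkk-1. *stx11.S*, for a syntaxin of membrane fusion, was lower in **Nog+Dkk** (-0.46, with 6.77 and 7.07 in **Nog+Dkk**, 7.26 and 7.49 in **Ven**, adjusted p = 0.0944, limma), and this call was lost with the arrays of conflicting labels left out (adjusted p = 1). A member with no gene name was also lower there (-0.80), again a call lost without those arrays. *hs3st1.L*, for an enzyme that sulfates heparan sulfate, was lower in **Dor** (-0.59, with 7.30 and 7.64 in **Dor**, 7.80 and 8.32 in **Ven**, adjusted p = 0.0597, limma).

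Beyond single calls, the **Nog+Dkk** samples of stage 10 read slightly lower over the set. The median difference of the members from **Ven** was -0.16, with 87.6% of the members below 0, while over all probe sets it was 0.01 with 47.2% below 0. The shift was present in both clutches, with members' medians of -0.19 in clutch 2 and -0.15 in clutch 1. In **Dkk** the members' medians were -0.09 in clutch 2 and -0.03 in clutch 1, in **Nog** 0.03 in clutch 2 and -0.05 in clutch 1, and in **Dor** -0.02 in clutch 2 and 0.01 in clutch 1. These medians have no test, since the members were chosen with results known.

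At stage 11.5 more members were called than at stage 10 in **Dor** and in **Nog+Dkk**, as over the whole array. In **Dor** against **Ven** 4 members were called higher and 1 lower, beside 1.50% and 1.34% of all probe sets. In **Nog+Dkk** against **Ven** 4 were called higher and 5 lower, beside 2.66% and 1.94% of all. None was called in **Dkk** against **Ven**, where 0.194% and 0.252% of all were called higher and lower. There 19 of the 185 members and 1238 of all 15491 probe sets had an unadjusted p under 0.05. The members' shares, 2.16% and 0.541% in **Dor** and 2.16% and 2.70% in **Nog+Dkk**, were near those of all probe sets. These counts changed when a clutch was left out. Clutches 1 and 2 hold no stage 11.5 array, so leaving out either kept the stage 11.5 differences as they were. Only the estimate of spread shared by all groups changed. The same holds for each stage 11.5 call below that was lost without clutch 1 or 2.

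*eomes.L* had the largest of these differences. It read 9.42 and 9.40 in **Dor** in clutches 3 and 4, 8.46 and 8.71 in **Nog+Dkk**, 8.30 and 8.03 in **Nog**, 8.19 and 8.23 in **Dkk**, and 7.68 and 8.2 in **Ven**. **Dor** stood above the 8 other arrays of the stage. The difference from **Ven** was 1.47 in **Dor** (SE 0.15, adjusted p = 7.47e-06, limma) and 0.64 in **Nog+Dkk** (SE 0.15, adjusted p = 0.0303, limma). The call in **Dor** held under each alternative that was run, and that in **Nog+Dkk** was lost without clutch 1, 2 or 3 (adjusted p of 0.108, 0.108 and 0.113). Dorsal tissue markers were higher in the same samples, by a median of 2.13 in **Dor** and 1.19 in **Nog+Dkk**. These markers include *nog* and *dkk1*, the genes injected in **Nog+Dkk**. The part of dorsal tissue in the *eomes.L* level was not tested.

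In *rasl11b.L* the order of conditions at stage 11.5 was not that of stage 10. It read 6.51 and 6.22 in **Dor** and 7.26 and 6.33 in **Nog+Dkk**, and 7.78 and 7.12 in **Ven**. The difference from **Ven** was -1.08 in **Dor** (SE 0.18, adjusted p = 0.00134, limma) and -0.65 in **Nog+Dkk** (SE 0.18, adjusted p = 0.0596, limma). The call in **Dor** held without each of the 4 clutches and was lost without the clutch block (adjusted p = 1). The call in **Nog+Dkk** was lost without clutch 1, 2 or 4 (adjusted p of 0.155, 0.155 and 0.219). Clutch 3 was above clutch 4 in each of the 5 conditions.

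*lpar6.L* was again higher than **Ven** at stage 11.5. The first probe set read 7.61 and 7.12 in **Nog+Dkk**, 7.11 and 6.97 in **Dor**, and 6.25 and 6.64 in **Ven**. In **Nog+Dkk** the difference was 0.92 (SE 0.15, adjusted p = 0.00207, limma), and 0.48 without clutch 3 and 1.36 without clutch 4, so the size rested on clutch 3. In **Dor** it was 0.59 (SE 0.15, adjusted p = 0.0444, limma), a call lost without clutch 1, 2 or 3 (adjusted p of 0.189, 0.189 and 0.75), and the difference was 0.33 without clutch 3. The second probe set was called in **Nog+Dkk** at 0.75 (SE 0.19, adjusted p = 0.0475, limma), a call lost without clutch 1, 2 or 3 (adjusted p of 0.129, 0.129 and 0.53), and the difference was 0.24 without clutch 3.

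Smaller calls at stage 11.5 were *rrm2.2.L* and *stmn1.S*, both higher in **Dor**. *rrm2.2.L* read 9.35 and 9.55 in **Dor** and 8.88 and 9.04 in **Ven**, with no overlap (0.49, SE 0.11, adjusted p = 0.0158, limma), and *stmn1.S* read 8.92 and 8.78 in **Dor** and 8.54 and 8.32 in **Ven**, also with no overlap (0.41, SE 0.11, adjusted p = 0.0784, limma). The call of *rrm2.2.L* was lost without clutch 3 or 4 (adjusted p of 0.189 and 0.14), and that of *stmn1.S* without any 1 of the clutches (adjusted p from 0.168 to 0.399). *aldh2.L* and *gng4.S* were lower in **Nog+Dkk**, with differences of -0.42 (adjusted p = 0.0856, limma) and -0.34 (adjusted p = 0.0815, limma). Both lost the call without clutch 1, 2 or 4.

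**Nog** against **Ven** at stage 11.5 is given without a p, since the rule capped how far a member could be higher in **Nog**. At the same threshold 3 members were higher and 21 lower, beside 4.15% and 4.42% of all probe sets. *dapl1.S* differed by -0.84, at 7.63 and 6.84 in **Nog** and 8.26 and 7.88 in **Ven**, and *dapl1.L* by -0.60, at 6.01 and 5.83 in **Nog** and 6.68 and 6.36 in **Ven**. *btg4.S* differed by -0.64, at 6.95 and 6.46 in **Nog** and 7.30 and 7.40 in **Ven**. The values of **Nog** did not overlap those of **Ven** in any of these 3 probe sets. *btg4.L* read 4.26 and 3.76 in **Nog** and 4.38 and 4.24 in **Ven**, lower in **Nog** within each clutch but with groups that overlapped. The members' median difference was -0.21 in clutch 4 and -0.01 in clutch 3, so nearly all of the shift lay in clutch 4. *cdc42se2.S*, which was higher by 0.32, and *lpar6.L*, higher by 0.53, were the named members above **Ven**.

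**Figure D5:**
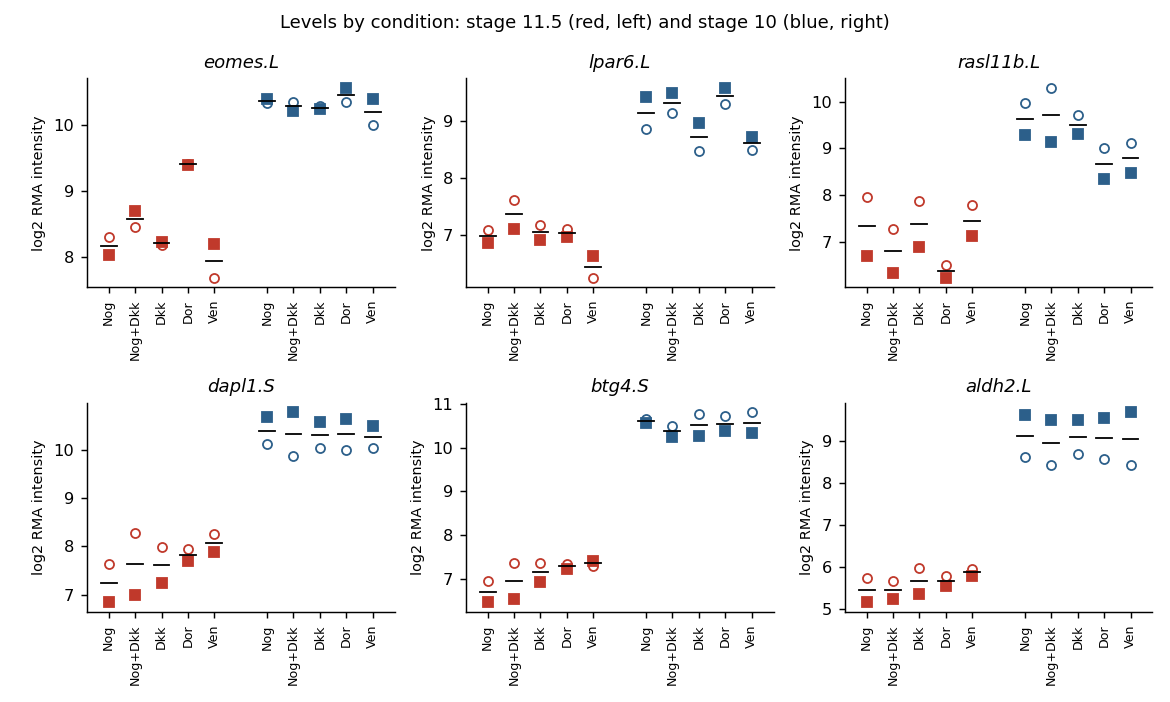
Level (log2 RMA intensity, vertical axis, a separate scale in each panel) of 6 members in the 5 conditions, stage 11.5 in red on the left and stage 10 in blue on the right. Each symbol is 1 array, open circles for clutches 3 and 1 and filled squares for clutches 4 and 2, and black bars are means of 2 arrays. *lpar6.L* is shown by the first of its member probe sets. The **Dor** arrays of *eomes.L* stand at 9.42 and 9.40 at stage 11.5, above the other conditions.

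Whether the stage difference itself differed from that of **Ven** was tested in the same model. In **Dor** 1 member was called higher and none lower, beside 0.290% and 0.232% of all probe sets. This was *eomes.L*, whose stage difference was smaller in **Dor** by 1.21 (SE 0.21, adjusted p = 0.0136, limma): it was -1.05 in **Dor** and -2.26 in **Ven**. In **Nog+Dkk** 1 was called higher and 1 lower, beside 0.0581% and 0.0839% of all. *rasl11b.L* was the lower one, with a stage difference of -2.93 in **Nog+Dkk** and -1.33 in **Ven** (-1.59, SE 0.25, adjusted p = 0.0181, limma). None was called in **Dkk**, where none of all probe sets was called higher and 0.0129% lower. There 20 of the 185 members and 827 of all 15491 probe sets had an unadjusted p under 0.05. The calls in **Dor** and **Nog+Dkk** were lost without clutch 1 (adjusted p of 0.362 for *eomes.L* and 0.792 for *rasl11b.L*) and without clutch 2 (0.549 and 0.228).

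In **Nog** 4 members were called lower and none higher, beside 1.00% and 0.555% of all probe sets. They were *rasl11b.L*, *dapl1.S*, *gng10.L* and a probe set with no gene name, and the rule's use of **Nog** at stage 11.5 makes this a description. The stage difference of *dapl1.S* was -3.16 in **Nog** and -2.20 in **Ven**.

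Clutches of the same stage were compared with 5 arrays against 5, where conditions had 2 against 2, so counts of calls between clutches and between conditions are not on the same footing. At stage 10, 82 members were higher and 36 lower in clutch 2 than in clutch 1, which is 44.3% and 19.5% of the members beside 26.4% and 19.7% of all probe sets. At stage 11.5, 71 were higher and 40 lower in clutch 4 than in clutch 3, or 38.4% and 21.6% beside 22.5% and 22.4% of all. The members' median difference was 0.14 at stage 10 and 0.07 at stage 11.5, while that of all probe sets was 0.01 at stage 10 and -0.002 at stage 11.5. The parents of a clutch, the exact age of its embryos and its handling cannot be told apart.

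Some transcripts were separated by clutch without overlap. *rgs4.S* read 6.14 to 6.67 in clutch 2 and 8.06 to 8.26 in clutch 1, a difference of -1.78 (SE 0.07, adjusted p = 2.59e-12, limma). *mreg.L*, a gene of organelle transport, read 7.13 to 7.51 in clutch 2 and 6.12 to 6.29 in clutch 1, and *aldh2.L* read 9.51 to 9.70 in clutch 2 and 8.43 to 8.71 in clutch 1. The detoxification gene *gstt1.L* read 7.95 to 8.13 in clutch 2 and 8.74 to 9.05 in clutch 1. At stage 11.5 *ugt3a2.L*, for a glycosyltransferase, read 5.01 to 5.34 in clutch 4 and 6.93 to 7.28 in clutch 3, a difference of -1.92 (SE 0.07, adjusted p = 1.26e-12, limma). *txn2.L*, for mitochondrial thioredoxin, read 5.39 to 5.87 in clutch 4 and 4.08 to 4.46 in clutch 3. *rgcc.S*, a regulator of the cell cycle, was lower in clutch 4 (-1.1). In *ugt3a2.L* the difference between these clutches of 1 stage came close to that between the stages, which was -1.94. In the member probe set of *rgs4.S* the stage difference was -2.53.

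The limit of 200 fell in a dense part of the ranking. The last members inside it were *gtsf2.L* (-1.817), a probe set with no gene name (-1.816) and *git2.L* (-1.809), and the first probe sets outside it were a pair with no gene name (-1.808 and -1.807) and *pigv.S* (-1.806). The difference between the last inside and the first outside was far under the spread between arrays, so the membership at this edge has no meaning of its own.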

How the data were processed

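Total RNA was hybridized to Affymetrix *Xenopus laevis* Genome Arrays. The deposited intensity values are RMA summaries that the authors computed in RMAExpress (version not given in the sources used here): probe signals were background corrected, quantile normalized and combined over the 16 probes of a set. They were deposited on a linear scale, from 4.67 to 16895, and were log2 transformed here without a floor. Quantile normalization forces the arrays to a like distribution, so levels are relative within an array. The deposited table held 15611 probe sets, of which 120 controls were left out. The scanner files were not used here. With 2 arrays a group, precision is limited by their number.

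Gene symbols came from the platform annotation in a table paired to the probes and were updated by gene ID (2 changed, none of them a member). Of the tested probe sets, 9304 had 1 symbol, 195 several and 5992 none. No genome or sequence table was used, so no sequence is printed.

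A linear model of the 10 groups, with the clutch as a block within each stage, was fitted with limma 3.58.1 under R 4.3.3. It had 8 residual degrees of freedom and a prior worth 9.82, and Benjamini-Hochberg adjustment ran over all probe sets of a comparison. As a check of the clutch labels, deviations of samples of 1 clutch from their group means were correlated between conditions, at 0.68 to 0.84 at stage 10 and 0.49 to 0.80 at stage 11.5, over 10 pairs of conditions each. The script was tested on simulated data. Tables and figures were made in Python 3.11.15 with matplotlib 3.10.9.

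Members, gene lists and comparisons were chosen with earlier results of these data known. Genes named were the 15 members with a symbol and the largest difference, the 3 with the largest difference in each list, the 3 called with the largest change in each direction of each comparison, and the 3 nearest the limit on each side. Others are named as examples of a role, and were picked after their values were seen.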

Additional observations from a re-analysis of the deposited data

Results flagged for a closer look

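A stage difference that was not the same in a condition as in **Ven**, by limma's test of the difference itself, was found for 7 pairs of a member and a condition. In **Nog** the stage difference minus that in **Ven** was -0.97 for *rasl11b.L*, -0.96 for *dapl1.S*, -0.68 for *gng10.L* and -0.87 for a probe set with no gene name (log2 scale). The rule that chose the members used **Nog** at stage 11.5, so these 4 are descriptions. In **Nog+Dkk** the value was -1.59 for *rasl11b.L* and 1.15 for another probe set with no gene name, and in **Dor** it was 1.21 for *eomes.L*.

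For *rasl11b.L* the level was higher than **Ven** at stage 10 in **Nog+Dkk** and lower at stage 11.5, and the clutches of a stage differed by -0.83 at stage 11.5. With the 2 arrays of conflicting clutch labels left out, the value in **Nog+Dkk** was -1.83 (adjusted p = 0.0303, limma). For *eomes.L* at stage 10, **Dor** read 10.35 and 10.57 in clutches 1 and 2 and **Ven** 10.01 and 10.41, so **Dor** was above **Ven** within each clutch although the groups overlapped. At stage 11.5 they did not overlap. The call of the probe set with no gene name in **Nog+Dkk** was lost without clutch 1, 2 or 3 (adjusted p of 0.761, 0.68 and 0.144, limma). Groups of 2 arrays allow no test of single outlying samples.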

How the results depend on the processing

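The median stage difference of the members was -1.96 with array medians set equal, which shifts every probe set, and stayed within the spread between arrays of a stage (0.10) under the other alternatives. The rule gave 175 to 188 members when a clutch was left out, of which 147 to 154 were shared with the 185. On cyclic loess values it gave 185 members with 164 shared, with array medians set equal 186 with 185 shared, and with the exclusions made first 200.

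Counts of members called moved by over 1.5 times as follows, and for the counts the cause was not tested. Without the clutch block (no replicate block) the counts against **Ven** were 0 in **Nog+Dkk** and 0 in **Dor** at stage 10, and at stage 11.5, 1 in **Dor** but 0 in **Nog** and 0 in **Nog+Dkk**, and 0 for the stage differences in **Nog**, **Nog+Dkk** and **Dor**. At an adjusted p below 0.05, they were 1 in **Nog+Dkk** at stage 10, 14 in **Nog** and 3 in **Nog+Dkk** at stage 11.5, and 0 and 1 for the stage differences in **Nog** and **Nog+Dkk**. On cyclic loess values they were 1 in **Nog+Dkk** at stage 10, 3 in **Dor** at stage 11.5, and 1 and 1 for the stage differences in **Nog** and **Nog+Dkk**. With the trended and robust prior they were 1 in **Dkk** at stage 11.5 and 7 for the stage difference in **Nog**, and among probe sets with a mean log2 intensity of 6 or more, 1 in **Nog** at stage 10 and 7 for the stage difference in **Nog**. Without the arrays of conflicting clutch labels, an alternative chosen after seeing the data, they were 1 in **Nog+Dkk** at stage 10, and 0 and 1 for the stage differences in **Nog** and **Nog+Dkk**.

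Leaving out each clutch in turn gave the following ranges of members called. For **Dor** they were 0 to 3 at stage 10, 2 to 5 at stage 11.5 and 0 to 3 in the stage difference. For **Nog+Dkk** they were 0 to 8, 1 to 25 and 0 to 5, for **Dkk** 0 to 1, 0 to 1 and 0, and for **Nog** 0 to 2, 9 to 31 and 0 to 16. Where a clutch is out, each condition at that stage has 1 array, which is assumed to vary like the others. The shares of all probe sets called under the alternatives are not given here. Counts of members under the alternatives therefore describe the fits and are no result about the members. Differences of called members were repeated under the alternatives for every call the text names or counts, other than those of **Nog** against **Ven** at stage 11.5 and between clutches, where only the named ones with the largest change were repeated. They kept their direction in all 386 repeats, and 148 of these lost the call. In many of these repeats the direction could not change. A stricter threshold, another prior, the intensity filter and a fit without the clutch block leave the differences as they were. So does leaving out a clutch of the other stage, for a difference within a stage.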
